A study of Chlorella sp. HS2 with 12 samples.

Results

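Cells of the unicellular green alga Chlorella sp. HS2 that were growing in salt water were set against cells of the same strain that had stopped growing in freshwater, because the 2 states share low transcript levels of the light-harvesting antenna. The marine exponential group held 3 libraries from cultures sampled on day 4 in an inorganic medium with 3% (w/v) sea salt. The freshwater stationary group held 3 libraries from cultures sampled on day 6 in the inorganic medium without added sea salt. All cultures were autotrophic, were grown in 1-L photobioreactors and received 5% CO2, and no group carried a genetic change. These 6 libraries were chosen by their labels out of 12; the other 2 groups, freshwater exponential on day 4 and marine stationary on day 6, entered the fit and are given beside the results as levels. Medium, growth phase and day all differ between the 2 groups, so their effects cannot be told apart in this comparison. Of 57640 assembled genes, 23351 had at least 15 counts summed over the 6 freshwater libraries and at least 15 over the 6 marine libraries and were kept, and 4819 of those had a product name.

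Chlorophyll a-b binding proteins form the antenna that passes light energy to the photosystems, and algae lower their transcripts when light exceeds what the cell can use, in particular when nutrients run out. In green algae nitrate is taken up by transporters, reduced by nitrate reductase and nitrite reductase, and built into amino acids by glutamine synthetase and glutamate synthase. Algae in salt water commonly adjust ion pumps and raise small organic solutes such as proline, sucrose and glycerol, while cells at the end of growth redirect fixed carbon into starch and oil.

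Each library held between 9378066 and 11280635 expected read counts, and the kept genes took 91.1% to 98.0% of them. The labels give the 3 marine exponential libraries codes with a shared stem, as they do for the first and second marine stationary libraries. Such libraries may be repeat preparations of 1 culture, although the series describes 3 biological replicates per condition, so p-values may measure a spread that is partly technical. The median gene differed between marine exponential libraries by 0.194 to 0.227 on the log2 scale and between freshwater stationary libraries by 0.345 to 0.409. The shared-stem marine stationary libraries differed by 0.222 from each other, and by 0.637 and 0.645 from the third. No pair agreed within sampling noise (chi-square per degree of freedom of 21.7 or more). Whether shared-stem libraries came from 1 culture was not tested. Genes whose best protein hit was bacterial took 2.98% to 3.35% of counts in the freshwater stationary libraries and 2.32% to 2.39% in the marine exponential libraries. Values below are counts scaled to a common library size (CPM) after TMM normalisation, which sets the factors so that most genes do not differ. Changes are log2 fold changes of marine exponential over freshwater stationary, and amounts after rose or fell are on the same log2 scale. The ± after a log2 fold change is a standard error worked back from the fold change and edgeR's quasi-likelihood test statistic. It was not estimated directly. The intervals of log2 fold changes are built from it, so they are approximate as well. A gene was called at an adjusted p under 0.05 in edgeR's quasi-likelihood test.

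Of the kept genes, 1553 (6.65%) were higher and 1836 (7.86%) lower in the marine exponential libraries, 14.5% in all. Scaling decided the balance between the directions: 45.8% of the called genes were higher with TMM factors, 72.4% with library totals alone and 32.7% with libraries scaled to the authors' deposited group means. Over 18496 kept genes with values in both groups, also in the authors' means, the median log2 ratio of group means moved by 0.50 with library totals. It moved by -0.22 with the authors' scaling. The fitted log2 fold changes below are relative to a median of -0.08 over the kept genes with counts in either group. Among the 6028 genes whose log2 CPM averaged 4 or more, 2771 were called, and for 2520 the 95% interval of the log2 fold change lay within 1 log2 unit of 0. The called share was 32.7% among genes with a product name (16.7% higher, 16.0% lower), and gene lists are read against those shares. It was 44.7% among named genes whose log2 CPM averaged 4 or more. The antioxidant, membrane lipid and cell wall lists lay near that higher share. Others, such as photoprotection, phosphate and metal transport, and sugar and amino acid transporters, lay between these shares. The called share in either direction does not set such lists apart from named genes of that level. In bulk RNA, fewer cells of a kind and less RNA per cell cannot be told apart.

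**Figure D1:**
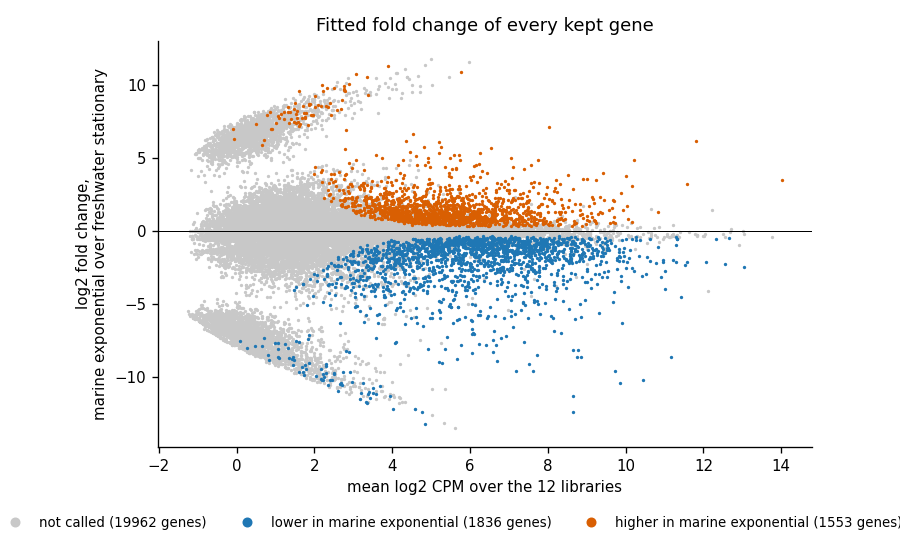
Log2 fold change of marine exponential over freshwater stationary (vertical axis) against the mean log2 CPM of the gene over the 12 libraries (horizontal axis), with 1 point per kept gene. The 1553 genes called higher and the 1836 called lower spread over the same range of levels, and the bands at the upper and lower edge are genes with 0 counts in all libraries of 1 group.

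The antenna transcripts were low in both states, but different genes made up what was left. The 26 kept antenna genes summed to 3166, 5568 and 5451 CPM in the freshwater stationary libraries and to 2846, 2463 and 2689 CPM in the marine exponential libraries, against 116978 ± 7791 CPM (SD, n = 3) in the freshwater exponential libraries and 3906 ± 971 CPM in the marine stationary libraries. The freshwater stationary mean was 4.04% and the marine exponential mean 2.28% of the freshwater exponential mean. With TMM factors all 3 freshwater stationary sums lay above all 3 marine exponential sums (exact permutation test, two-sided p = 0.1, the smallest that 3 against 3 libraries allow). That separation depended on the scaling, because the TMM factors raised the freshwater stationary sums relative to the marine exponential ones. With library totals alone the first freshwater stationary sum would lie below every marine exponential sum, and the groups would overlap. For 20 of the 26 genes every library of both states lay below every freshwater exponential library.

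The order of the sums rested on 1 assembled gene. TRINITY_DN2252_c0_g1, whose best hit is a type I protein of the major antenna complex LHCII, was counted at 2328, 4555 and 4124 CPM in the freshwater stationary libraries and at 2.26, 2.09 and 3.72 CPM in the marine exponential libraries. It was also near 0 in the freshwater exponential libraries (1.80 ± 0.515 CPM) and in the marine stationary libraries (1.34 ± 1.08 CPM), so it was high in 1 of the 4 groups only, and its log2 fold change was -10.41 ± 0.67 (SE; adjusted p = 3.3e-06). Without it the antenna sum was 839, 1014 and 1327 CPM in the freshwater stationary libraries and 2844, 2461 and 2685 CPM in the marine exponential libraries. The groups again did not overlap, now in the other direction. The gene was singled out after its values were seen, so this order is given without a test. Only the copy high in the freshwater stationary libraries was taken out. The main copy of its component in the marine exponential libraries, TRINITY_DN2252_c0_g2, stayed in the sum. The whole component summed to 3798 ± 1167 CPM in the freshwater stationary and 1441 ± 96.3 CPM in the marine exponential libraries. TRINITY_DN2252_c0_g2, from the same assembly component and with a hit to chlorophyll a-b binding protein 3, showed the reverse pattern, with 130.1, 60.8 and 172 CPM in the freshwater stationary and 1433, 1271 and 1446 CPM in the marine exponential libraries. It held 96.0% of the component's normalised counts in the marine exponential libraries and 98.0% in the freshwater exponential libraries, while the first gene held 96.3% in the freshwater stationary libraries. Genes of 1 assembly component share sequence, and how the assembler and the read assignment split them was not tested. Summed over the component, the log2 fold change was -1.35 and was called as lower.

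Of the 26 antenna genes, 9 were higher and 5 lower in the marine exponential libraries (13 and 3 with library totals, and 3 lower without freshwater stationary replicate 3 or marine exponential replicate 3), and 17 did not overlap between the groups, against 33.8% of all kept genes. The 33.8% covers genes of mostly lower level. A log2 CPM averaging 4 or more was reached by 6028 of the 23351 kept genes and by 24 of the 26 antenna genes. The median log2 fold change of the list was 0.44. The minor antenna protein CP29 (TRINITY_DN297_c0_g2), which links the outer antenna to photosystem II, was counted at 51.1, 71.3 and 67.3 CPM and 259.7, 251 and 271 CPM (log2 fold change 2.04 ± 0.15, adjusted p = 6e-06), with every marine exponential library above every freshwater stationary one. The other higher genes were TRINITY_DN1607_c0_g1 (3.57), TRINITY_DN10362_c0_g2 (2.56), TRINITY_DN1819_c0_g2 (3.12), TRINITY_DN1819_c0_g7 (0.91), TRINITY_DN2252_c0_g4 (2.88) and TRINITY_DN546_c0_g10 (2.74), each value a log2 fold change. Of these, the component sums of the 2 DN1819 genes (-0.086) and of the DN546 gene (-0.48) were not called, and that of the DN2252 gene was lower, as given above. The light-harvesting-like protein LIL3 (TRINITY_DN2986_c0_g1), which takes part in chlorophyll synthesis, rose by 1.82.

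Among the lower antenna genes, TRINITY_DN546_c0_g9, a further LHCII type I gene, followed the pattern of the freshwater stationary copy, with 109, 304 and 234 CPM against 0.753, 1.08 and 0.971 CPM (log2 fold change -7.83 ± 0.50, adjusted p = 3.3e-06). Summed over its component of 11 genes, the log2 fold change was -0.48 and was not called. The other 3 fell by smaller amounts, TRINITY_DN546_c0_g3 by 1.2, TRINITY_DN9933_c0_g1 by 1.17 and TRINITY_DN1819_c0_g6 by 0.92. None of the 3 was called when its component was summed, and the calls of TRINITY_DN9933_c0_g1 and TRINITY_DN1819_c0_g6 were also lost with library totals and when single libraries were left out, with adjusted p up to 0.1 and 0.055. Of the 24 antenna genes whose log2 CPM averaged 4 or more, 14 were called, against 44.7% of named genes above that level, and 10 were not. Their log2 fold changes were 1.47 for TRINITY_DN10362_c0_g1, -0.17 for TRINITY_DN1738_c0_g2, -0.48 for TRINITY_DN1819_c0_g1, 0.59 for TRINITY_DN1819_c0_g4, 0.12 for TRINITY_DN1819_c1_g2, -0.17 for TRINITY_DN1819_c1_g3, 0.28 for TRINITY_DN1819_c1_g4, -0.48 for the CP26 gene TRINITY_DN2947_c0_g1, 1.5 for TRINITY_DN546_c0_g2 and 1.28 for TRINITY_DN546_c0_g6. The last was seen in only 1 library of each group, at 170 CPM in the first marine exponential and 70.1 CPM in the first freshwater stationary library. The 2 antenna genes of lower level had log2 fold changes from -7.09 to -0.18 and were not called.

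**Figure D2:**
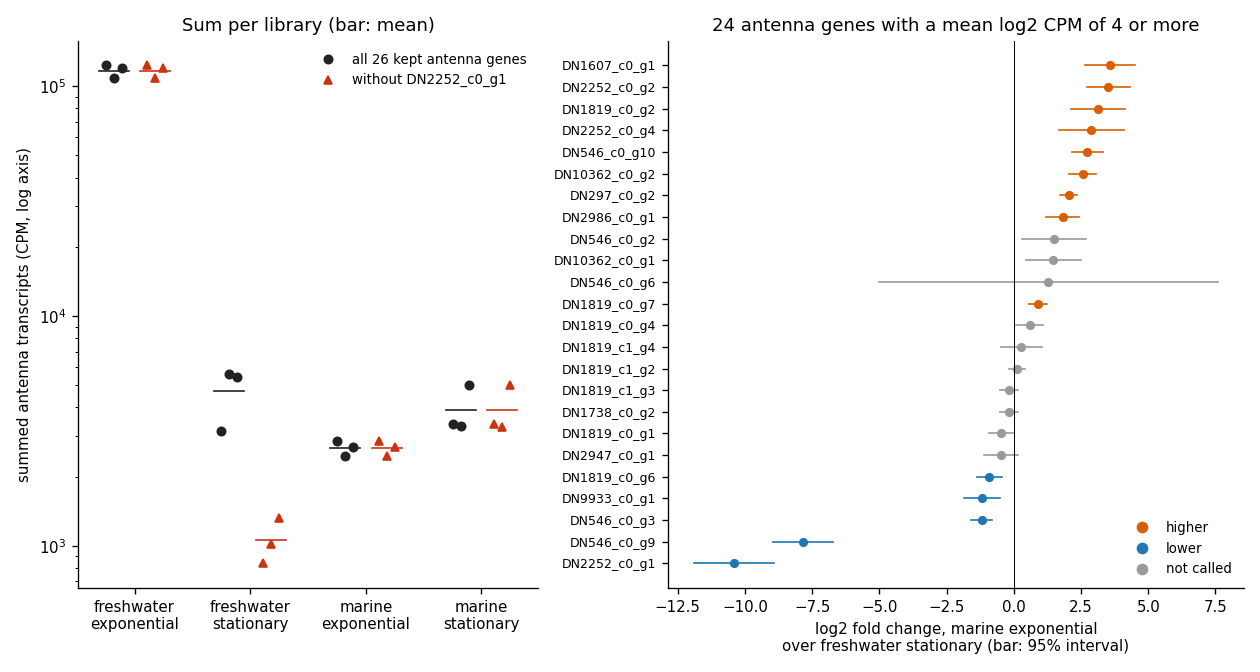
Left, the summed CPM of the antenna genes in each library on a log axis (points are libraries, bars are group means). Sums are given for all 26 genes and without 1 LHCII type I gene that was high in the freshwater stationary libraries alone. Leaving it out lowers the freshwater stationary mean from 4729 to 1060 CPM and turns the order of the 2 states. That gene was picked after its values were seen, and other antenna genes of its assembly component stay in the sum. Right, the log2 fold change of the 24 more abundant antenna genes with 95% intervals, where 2 genes fall far below the others.

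Outside the antenna, most photosystem genes did not pass the test. Of 39 photosystem and electron transport genes, 9 were higher and 3 lower, with a median log2 fold change of -0.04, which became positive (0.46) with library totals. The called share of 30.8% lay near the 32.7% of all genes with a product name. The list summed to 1950 ± 226 CPM in the freshwater stationary and 2314 ± 36.3 CPM in the marine exponential libraries. Both were far below the 19175 ± 1128 CPM of the freshwater exponential libraries. Photosystem I subunit PsaD (TRINITY_DN3598_c0_g1), which docks ferredoxin, was at 53.7, 59.2 and 51.5 CPM and 163, 148 and 151 CPM (log2 fold change 1.49 ± 0.13, adjusted p = 2.3e-05). Its freshwater exponential level was 1421 ± 193 CPM. Ferredoxin-NADP reductase (TRINITY_DN4410_c0_g1), the enzyme that makes NADPH at the end of the chain, rose by 1.41, and PROTON GRADIENT REGULATION 5 (TRINITY_DN1551_c0_g1), a regulator of cyclic electron flow, rose by 3.75; the transcript of the latter also holds a reading frame of a protein-isoaspartate methyltransferase. The gamma chain of the chloroplast ATP synthase (TRINITY_DN1363_c0_g1) was lower, at 292, 307 and 368 CPM against 96.9, 96.2 and 85.7 CPM (log2 fold change -1.79 ± 0.14, adjusted p = 9e-06). A transcript of the photosystem II protein D1 (TRINITY_DN51627_c0_g1), which chloroplasts encode and which poly(A) selection recovers only in part, fell by 3.46.

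Calvin cycle and photorespiration genes that passed the test were mostly higher in the salt-grown cells. Of 15 Calvin cycle genes 6 were higher and 2 lower (median 0.62), and 7 and 1 with library totals. They summed to 1514 ± 132 CPM in the freshwater stationary and 1839 ± 29.5 CPM in the marine exponential libraries. The freshwater exponential sum was 12688 ± 1340 CPM. Rubisco activase (TRINITY_DN4122_c0_g1), which frees the active site of Rubisco, was at 44.5, 27.0 and 44.9 CPM against 174, 178 and 185 CPM (log2 fold change 2.21 ± 0.25, adjusted p = 0.00012). The Rubisco small chain (TRINITY_DN1599_c0_g1) was at 696, 798 and 886 CPM and 788, 779 and 737 CPM, so the groups overlapped and the gene was not called (log2 fold change -0.05 ± 0.14, adjusted p = 0.99). It was far below its freshwater exponential level of 9616 CPM in both states, and its sign turned with library totals (0.45). The Rubisco large chain (TRINITY_DN1417_c0_g4), which carries the active site and which chloroplasts encode, was lower, at 28.1, 23.1 and 19.0 CPM against 1.58, 1.47 and 0.890 CPM (log2 fold change -4.14 ± 0.34, adjusted p = 1.3e-05; -1.01 over its component). Of 11 carbon concentration and photorespiration genes 4 were higher and 0 lower (median 0.99) in edgeR, which gave 2 lower genes at an unadjusted p under 0.05, while DESeq2 called 6 and 2 and the authors' scaling gave 4 and 2. Leaving out freshwater exponential replicate 3 or freshwater stationary replicate 2 gave 1 lower gene, and leaving out marine stationary replicate 3 gave 2. All 4 belong to photorespiration, which recovers carbon from the oxygenation product of Rubisco: serine-glyoxylate aminotransferase (TRINITY_DN3383_c0_g1, 3.73), glycolate oxidase subunit GlcD (TRINITY_DN3544_c0_g1, 2.44), glycine dehydrogenase (TRINITY_DN2890_c0_g1, 2.25) and hydroxypyruvate reductase (TRINITY_DN4772_c0_g1, 1.62). The first 2 have their best hits in bacteria, and whether they are algal or bacterial transcripts was not tested. Serine-glyoxylate aminotransferase was at 3.99, 6.66 and 7.47 CPM against 78.8, 83.7 and 79.3 CPM. Carbonic anhydrase 2 (TRINITY_DN2396_c0_g1), which interconverts CO2 and bicarbonate, was at 6.46, 9.75 and 7.36 CPM against 15.8, 13.8 and 14.5 CPM without passing the test (adjusted p = 0.087).

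Chlorophyll synthesis genes were higher more often than lower. Of 27 chlorophyll and heme genes 11 were higher and 3 lower (median 0.57), and 17 and 1 with library totals. The ChlH subunit of magnesium chelatase (TRINITY_DN4273_c0_g1), which starts the chlorophyll branch, was at 35.0, 40.4 and 28.2 CPM against 145, 157 and 153 CPM (log2 fold change 2.13 ± 0.36, adjusted p = 0.0018), and its freshwater exponential level was 29.3 CPM. Of 26 carotenoid and isoprenoid genes 3 were higher and 3 lower, but 11 and 1 with library totals, and 8 were higher without marine stationary replicate 3. Of 13 photoprotection and light receptor genes 4 were higher and 1 lower, and 3 and 3 with the authors' scaling. Without freshwater exponential replicate 1 or marine stationary replicate 3, 2 of them were lower, and without freshwater exponential replicate 3, 3 were. The gene lower with all libraries was the mitochondrial alternative oxidase (TRINITY_DN728_c0_g1), a bypass of the respiratory chain, at 1448, 1332 and 1223 CPM against 468, 471 and 469 CPM, on a transcript that holds frames of several other proteins.

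Nitrogen uptake and assimilation genes that passed the test were mostly higher in the salt-grown cells, and nitrate reductase was the most abundant of them. Of 24 kept nitrogen genes 14 were higher and 3 lower in the marine exponential libraries, with a median log2 fold change of 1.2 against 0.06 over all genes with a product name. Their sum was 3250 ± 383 CPM in the freshwater stationary and 12681 ± 464 CPM in the marine exponential libraries (SD, n = 3 each), beside 2438 ± 131 CPM in the freshwater exponential and 8208 ± 36.8 CPM in the marine stationary libraries. Without nitrate reductase the sums were 2392 and 4581 CPM. Nitrate reductase (TRINITY_DN580_c1_g1) was counted at 804, 1013 and 755 CPM in the freshwater stationary libraries and at 8021, 8547 and 7731 CPM in the marine exponential libraries (log2 fold change 3.24 ± 0.38, adjusted p = 0.00015). Every marine exponential library lay above every freshwater stationary library, and the transcript also holds a reading frame of nitrite reductase, the next enzyme of the path, so the 2 enzymes share this value. A less abundant nitrate reductase gene (TRINITY_DN384_c0_g1) rose by 1.42 and high-affinity nitrate transporter 2.6 (TRINITY_DN668_c1_g2) by 1.14.

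The gene with the second largest share of counts in the marine exponential libraries, 1.24%, is named after the serine/threonine kinase TOUSLED. TRINITY_DN425_c0_g1 was counted at 132, 186 and 102 CPM in the freshwater stationary and 10198, 10286 and 10309 CPM in the marine exponential libraries (log2 fold change 6.19 ± 0.34, adjusted p = 1.4e-06), with 30.1 ± 7.92 CPM in the freshwater exponential and 3925 ± 1311 CPM in the marine stationary libraries. Its assembled sequence, with a longest transcript of 17450 bases, also holds predicted reading frames that match high-affinity nitrate transporters and formate dehydrogenase. The counts were made per assembled gene without strand, so which of these neighbours the reads came from cannot be told apart. The same holds for TRINITY_DN431_c0_g2, named coatomer subunit delta, which carries a frame of siroheme synthase (siroheme is the cofactor of nitrite and sulfite reductase) and rose by 3.51. It also holds for TRINITY_DN488_c2_g1, named a xylose symporter, which carries a frame of ammonium transporter AMT1 and rose by 5.33. Frames of different proteins on 1 transcript were found for 800 of the 4819 kept genes with a product name (16.6%) and for 431 of the 1578 called ones (27.3%). When all such genes were set aside, an alternative chosen after seeing the data, 7 nitrogen genes were higher and 2 lower (median 0.89).

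Single genes for the use of other nitrogen forms also passed the test. Ammonium transporter 1 member 3 (TRINITY_DN456_c1_g1) was at 25.1, 21.3 and 24.0 CPM against 222, 224 and 214 CPM (log2 fold change 3.23 ± 0.52, adjusted p = 0.0013). The urea-proton symporter DUR3 (TRINITY_DN139_c0_g2) was at 2.23, 2.73 and 3.17 CPM against 391, 400.0 and 387 CPM (log2 fold change 7.17 ± 0.49, adjusted p = 4.6e-06), and the groups lay far apart. The sum over the 4 genes of its assembly component differed by 1.26 and was not called. The uric acid-xanthine permease (TRINITY_DN3919_c0_g1) was at 10.6, 12.1 and 10.6 CPM against 325, 335 and 328 CPM (log2 fold change 4.89 ± 0.25), and primary amine oxidase (TRINITY_DN2445_c0_g2), which releases ammonium from amines and has a bacterial best hit, rose by 3.10. Downstream, cytosolic glutamine synthetase (TRINITY_DN1744_c0_g1), which fixes ammonium, was at 262, 330.2 and 308 CPM against 1275, 1351 and 1341 CPM (log2 fold change 2.14 ± 0.16, adjusted p = 7e-06). The 2 glutamate synthase genes TRINITY_DN165_c0_g1 and TRINITY_DN165_c0_g2 rose by 1.26 and 1.3, the latter with a call that was lost without freshwater stationary replicate 3 or marine exponential replicate 1 (adjusted p up to 0.076). Glutamate dehydrogenase went the other way: gene A (TRINITY_DN224_c1_g1) was at 528, 965 and 781 CPM against 234, 247 and 232 CPM (log2 fold change -1.67 ± 0.35) and an NADP-specific gene (TRINITY_DN2745_c0_g4) fell by 2.72, while its component sum (-0.42) was not called. The transcripts of the ammonium transporter, of TRINITY_DN165_c0_g1 and TRINITY_DN384_c0_g1, and of gene A hold frames of other proteins as well.

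Nitrate reductase carries a molybdenum cofactor, and 4 genes of molybdenum supply, put together as a set after their values were seen, were higher. No list of such genes was counted, so how many others were not called or lower is not given. Any link to nitrate reductase was not tested. Molybdate transporter 1 (TRINITY_DN434_c1_g1) was at 59.1, 41.0 and 53.1 CPM against 238, 237 and 253 CPM (log2 fold change 2.25 ± 0.16, adjusted p = 6e-06), while the marine stationary libraries held 57.8 ± 5.24 CPM. The cofactor synthesis genes for GTP 3',8-cyclase (TRINITY_DN1382_c0_g1), CNX1 (TRINITY_DN583_c0_g1) and MOCS3 (TRINITY_DN2646_c0_g1) rose by 1.68, 1.41 and 2.16.

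**Figure D3:**
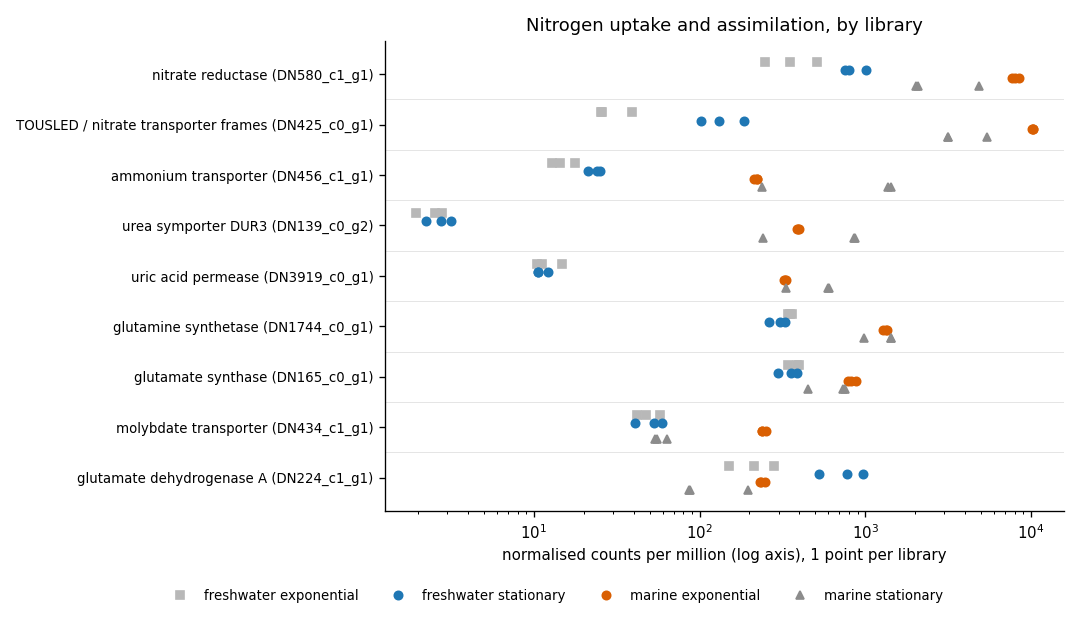
Normalised CPM (log axis) of 9 nitrogen-related genes in each of the 12 libraries, 1 point per library. For 8 genes the marine exponential points lie above all freshwater stationary points, and for glutamate dehydrogenase A they lie below them.

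Sulfur assimilation genes were called lower more often than higher in the salt-grown cells, by a margin that depended on the scaling. Of 19 sulfur and methionine cycle genes 2 were higher and 8 lower, with a median log2 fold change of -0.82. With library totals 5 were higher and 6 lower (median -0.33), and with the authors' scaling 1 and 11 (median -1.05). The higher count was 4 without freshwater exponential replicate 3 or marine stationary replicate 3, 2 without freshwater exponential replicate 1 or 2, and 1 without any other library. The cysteine synthases TRINITY_DN298_c0_g2 and TRINITY_DN150_c0_g2, which place sulfide in cysteine, were at 1034, 1303 and 1330.5 and 526, 704 and 719 CPM in the freshwater stationary libraries and at 385, 354 and 402 and 174, 165 and 163 CPM in the marine exponential libraries. Both lay lower in every marine exponential library (log2 fold changes -1.68 ± 0.14 and -1.96 ± 0.15). In the freshwater exponential libraries they were lower still, at 231 ± 26.9 and 95.1 ± 13.8 CPM. The sum of the list differed from this, with 15155 ± 2490 CPM in the freshwater exponential and 15259 ± 1012 CPM in the freshwater stationary libraries. It was 4910 ± 69.7 CPM in the marine exponential and 2870 ± 384 CPM in the marine stationary libraries. The adenosylhomocysteinase gene given below made up 63.7% of the freshwater stationary and 42.1% of the marine exponential sum. Serine acetyltransferase (TRINITY_DN695_c0_g1), which makes the carbon acceptor for sulfide, was at 445, 576 and 572 CPM against 99.2, 98.9 and 98.2 CPM (log2 fold change -2.43 ± 0.41, adjusted p = 0.0018). The reductive steps fell less: adenylylsulfate reductase (TRINITY_DN3802_c0_g1) by 1.5 and sulfite reductase (TRINITY_DN1665_c0_g1) by 1.25. Adenosylhomocysteinase (TRINITY_DN98_c0_g1), which recycles the product of methylation reactions, was at 9916, 8538 and 10713 CPM against 2044, 2103 and 2054 CPM, but its transcript also holds frames of pyruvate, phosphate dikinase, and those of TRINITY_DN298_c0_g2 and TRINITY_DN1665_c0_g1 hold frames of other proteins. Without genes that hold frames of different proteins 4 sulfur genes were lower and the median was -0.39.

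Starch synthesis genes that passed the test were higher in the growing salt-water cells than in the stationary freshwater cells. Of 13 genes 8 were higher and 0 lower (median 0.79) in edgeR and in DESeq2, and 0 were lower at an unadjusted p under 0.05 in edgeR, while the authors' scaling gave 7 and 1. Granule-bound starch synthase 1 (TRINITY_DN2954_c0_g1), the amylose-forming enzyme, was at 129, 151 and 129 CPM against 598, 632 and 568 CPM (log2 fold change 2.14 ± 0.16, adjusted p = 7.9e-06), with 84.8 ± 15.1 CPM in the freshwater exponential and 669.9 ± 101 CPM in the marine stationary libraries. Granule-bound starch synthase 2 (TRINITY_DN2798_c0_g1) rose by 1.43. The small subunit of ADP-glucose pyrophosphorylase (TRINITY_DN86_c0_g1), the committed step of starch synthesis, was at 521, 503 and 524 CPM and 519, 555 and 517 CPM, and its 95% interval ran from -0.30 to 0.38. Starch breakdown also had more genes higher (7 of 18) than lower (2), with 11 and 1 with library totals and 5 and 4 with the authors' scaling. Among them was glycogen phosphorylase 1 (TRINITY_DN1146_c0_g2), which cuts glucose off the polymer's end, at 225, 276 and 240.0 CPM against 879, 945 and 844 CPM (log2 fold change 1.85 ± 0.14, adjusted p = 7.5e-06).

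Glycolysis genes were also higher more often than lower. Of 58 glycolysis and pyruvate genes 25 were higher and 3 lower (median 0.58), and 18 and 7 with the authors' scaling. Phosphofructokinase 5 (TRINITY_DN164_c0_g1), phosphoglycerate mutase (TRINITY_DN957_c0_g2) and enolase (TRINITY_DN42372_c0_g1), enzymes of the upper and lower glycolytic path, rose by 2.41, 2.17 and 1.22. The phosphoenolpyruvate carboxylases TRINITY_DN1951_c0_g2 and TRINITY_DN2649_c0_g1, which refill the citric acid cycle and feed amino acid synthesis, rose by 2.15 and 1.87. In the oxidative pentose phosphate path, glucose-6-phosphate dehydrogenase (TRINITY_DN769_c0_g1), the source of NADPH outside the light reactions, was at 315, 474 and 330.2 CPM against 1418, 1459.8 and 1440.3 CPM (log2 fold change 1.95 ± 0.19, adjusted p = 3.8e-05), while the freshwater exponential libraries held 188 ± 15.5 CPM and the marine stationary libraries 349 ± 70.9 CPM. Its marine exponential level was above all libraries of the other 3 groups.

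The citric acid and glyoxylate cycle genes were called in both directions. Of 27 genes 11 were higher and 5 lower (median 0.47), 16 and 3 with library totals and 5 and 6 with the authors' scaling. Without freshwater stationary replicate 1 or marine exponential replicate 1 or 3, 7 were higher. Citrate synthase (TRINITY_DN865_c0_g1), the entry of the cycle, was at 2392, 1722 and 1992 CPM against 488, 460.3 and 491 CPM (log2 fold change -2.08 ± 0.17, adjusted p = 1.2e-05). The enzymes of the glyoxylate bypass, which turns acetyl units into sugar precursors, were both lower. Isocitrate lyase (TRINITY_DN176_c1_g1) was at 671, 625 and 657 CPM against 200.0, 212 and 214 CPM (log2 fold change -1.64 ± 0.10, adjusted p = 2.4e-06). Malate synthase (TRINITY_DN1209_c0_g1) was at 126, 94.8 and 127 CPM against 11.7, 9.73 and 9.39 CPM (log2 fold change -3.50 ± 0.24). For all 3 genes the marine exponential libraries lay below every freshwater library of either phase. The best hits of all 3 are bacterial, and the isocitrate lyase transcript holds frames of other proteins.

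Fatty acid genes were called in both directions. Of 31 fatty acid synthesis genes 7 were higher and 3 lower, and 6 and 5 with the authors' scaling. Of 31 fatty acid breakdown and peroxisome genes 3 were higher and 8 lower (median -0.44), 5 and 2 with library totals (median 0.06) and 2 and 13 with the authors' scaling. The count of lower breakdown genes fell to 2 without marine exponential replicate 2 or 3, to 3 without replicate 1, to 4 without freshwater stationary replicate 2, and to 5 without its other replicates, freshwater exponential replicate 3 or marine stationary replicate 2. Subunits of acetyl-CoA carboxylase, the first step of plastid fatty acid synthesis, were higher: biotin carboxylase (TRINITY_DN3334_c0_g3) by 2.11 and the carboxyl transferase alpha subunit (TRINITY_DN20702_c0_g2) by 1.69. Stearoyl-ACP desaturase (TRINITY_DN986_c0_g1), which places the first double bond, was at 334, 293 and 357 CPM against 176, 172 and 175 CPM (log2 fold change -0.91 ± 0.18), a call that was lost over its assembly component (-0.11) and with library totals (-0.41). Of single genes that act on long chains, 3-ketoacyl-CoA synthase 2 (TRINITY_DN157_c0_g2), which extends fatty acids and belongs to the synthesis list, was at 1054, 1466 and 1228 CPM against 169, 180.0 and 179 CPM (log2 fold change -2.83 ± 0.17, adjusted p = 2.4e-06; -1.69 over its component). The 3-oxoacyl-CoA reductase of the same elongation cycle (TRINITY_DN493_c0_g1) fell by 1.76, and long-chain acyl-CoA synthetase 3 (TRINITY_DN1001_c0_g1), which activates fatty acids, by 1.79. Frames of other proteins lie on the transcripts of the carboxyl transferase, the desaturase, the 3-oxoacyl-CoA reductase and the acyl-CoA synthetase.

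Of 22 membrane lipid and triacylglycerol genes 7 were higher and 3 lower (median 0.45), and 4 were higher without freshwater stationary replicate 3 or marine exponential replicate 3. Digalactosyldiacylglycerol synthase 1 (TRINITY_DN1784_c0_g1), which makes a main thylakoid lipid, was at 89.5, 73.2 and 89.0 CPM against 165, 172 and 167 CPM (log2 fold change 1.00 ± 0.10). The 3 lower genes were UDP-sulfoquinovose synthase (TRINITY_DN3753_c0_g1), which makes the head group of the plastid sulfolipid (-1.71), the triacylglycerol lipase SDP1 (TRINITY_DN1206_c0_g1), which breaks down stored oil (-1.86), and glycerol-3-phosphate acyltransferase 9 (TRINITY_DN1035_c0_g1), an early step of oil assembly (-1.29). The lipase was at 292, 744 and 646 CPM in the freshwater stationary libraries, with the first replicate well below the others, against 156, 169 and 139 CPM. Diacylglycerol acyltransferase 1C (TRINITY_DN290_c3_g2), the last step of oil synthesis, was at 46.2, 46.7 and 42.0 CPM and 47.7, 51.0 and 48.9 CPM and was not called, while its component sum was called as lower (-1.13). The transcripts of the galactolipid synthase, the lipase and the acyltransferase 9 hold frames of other proteins.

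**Figure D4:**
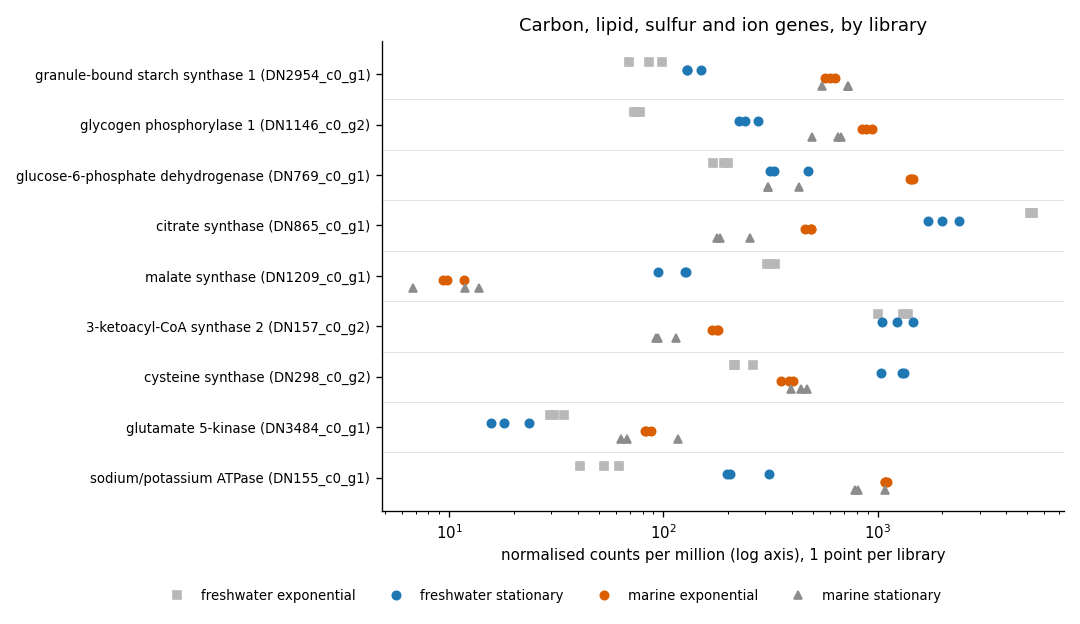
Normalised CPM (log axis) of 9 genes of starch, sugar, lipid, sulfur, solute and ion metabolism in each of the 12 libraries, 1 point per library. For all 9 genes the marine exponential points and the freshwater stationary points lie on separate sides, with 5 genes higher and 4 lower in the marine exponential libraries.

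Genes of compatible solute metabolism that passed the test were nearly all higher in the salt-grown cells. Compatible solutes are small molecules that balance osmotic pressure, and the list was matched by product name, not by the direction of a reaction. Of 22 compatible solute genes 13 were higher and 1 lower (median 0.77), and 9 and 0 without genes that hold frames of different proteins. Proline synthesis runs from glutamate through glutamate 5-kinase to pyrroline-5-carboxylate reductase. Glutamate 5-kinase (TRINITY_DN3484_c0_g1) was at 23.7, 15.7 and 18.1 CPM against 87.2, 83.3 and 82.3 CPM (log2 fold change 2.13 ± 0.24, adjusted p = 0.00011). The reductase genes TRINITY_DN2936_c0_g1 and TRINITY_DN635_c0_g1 rose by 2.89 and 1.52, and pyrroline-5-carboxylate synthase (TRINITY_DN715_c0_g2) by 0.77. Sucrose synthase 3 (TRINITY_DN1500_c0_g1), which interconverts sucrose and UDP-glucose, was at 55.6, 62.2 and 59.9 CPM against 248, 248 and 244 CPM (log2 fold change 2.06 ± 0.10, adjusted p = 7.7e-07). Glycerol-3-phosphate dehydrogenases, which link glycolysis to glycerol, rose by 1.71 (TRINITY_DN3869_c0_g1) and by 0.76 for the mitochondrial form SDP6 (TRINITY_DN190_c0_g1). The sucrose synthase and both dehydrogenase transcripts hold frames of other proteins, and the best hit of glutamate 5-kinase is cyanobacterial.

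Of 54 genes of sodium, potassium, calcium and proton transport 11 were higher and 3 lower, against 16.7% and 16.0% of named genes, with a median of 0.12 that turned negative (-0.10) with the authors' scaling. With library totals 25 were higher and 2 lower, with the authors' scaling 8 and 6, and 5 were lower without marine stationary replicate 3. A sodium/potassium-transporting ATPase (TRINITY_DN155_c0_g1), an ion pump best known from animals, was at 204, 310.4 and 199 CPM against 1081, 1111 and 1080.3 CPM (log2 fold change 2.20 ± 0.22, adjusted p = 5.1e-05), and with 52.0 ± 10.8 CPM in the freshwater exponential and 892 ± 167 CPM in the marine stationary libraries. Sodium/hydrogen exchanger 7 (TRINITY_DN255_c0_g1), which exports sodium in plants, rose by 1.17. Exchanger 8 (TRINITY_DN832_c0_g1) was at 303, 239.7 and 232 CPM against 403, 367 and 471 CPM and the plasma membrane proton ATPase (TRINITY_DN298_c2_g1) at 267, 447 and 258 CPM against 409, 438 and 415 CPM, and neither passed the test (adjusted p = 0.13 and 0.36). The water channel aquaporin-1 (TRINITY_DN1723_c0_g2) was lower, at 244, 320.3 and 239 CPM against 36.0, 35.2 and 37.1 CPM (log2 fold change -2.89 ± 0.37, adjusted p = 0.00032), and the vacuolar pyrophosphatase proton pump (TRINITY_DN1448_c0_g1) fell by 1.43. Among 25 sugar and amino acid transporters 7 were higher and 3 lower (11 and 2 with library totals), with sugar transport protein 1 (TRINITY_DN95_c0_g1) higher by 2.62.

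Phosphate and metal genes went both ways: of 28 phosphate and metal transport genes 7 were higher and 4 lower, 14 and 3 with library totals and 6 and 6 with the authors' scaling. The phosphate permease pho-4 (TRINITY_DN3088_c0_g2) was at 4.46, 4.04 and 15.8 CPM against 269, 273 and 236 CPM (log2 fold change 4.99 ± 0.47, adjusted p = 3.6e-05), and probable inactive purple acid phosphatase 9 (TRINITY_DN1302_c0_g1) rose by 2.79. TRINITY_DN414_c0_g1, named after the nuclease FAN1 but with frames of a phosphate permease on the same transcript, was at 63.4, 75.7 and 68.6 CPM against 2023, 2026 and 2033 CPM (log2 fold change 4.87 ± 0.22, adjusted p = 7.7e-07). SPX domain protein 2 (TRINITY_DN2825_c0_g1), of a family that senses phosphate in plants and yeast, was lower, at 1303, 1070.1 and 1341 CPM against 185, 184 and 193 CPM (log2 fold change -2.72 ± 0.25, adjusted p = 2.9e-05). The metal transporter nramp1 homolog (TRINITY_DN3078_c0_g1) fell by 2.56.

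Antioxidant genes went both ways, with 16 of 64 antioxidant and thiol genes higher and 13 lower (median 0.08), 22 and 9 with library totals and 14 and 18 with the authors' scaling. The ascorbate-glutathione recycling enzymes monodehydroascorbate reductase (TRINITY_DN1476_c0_g1) and glutathione reductase (TRINITY_DN959_c0_g1) were at 99.1, 105 and 112 and 112, 95.1 and 119 CPM in the freshwater stationary libraries and at 441, 441 and 437 and 504, 503 and 515 CPM in the marine exponential libraries. The 2 groups did not overlap for either (log2 fold changes 2.06 ± 0.10 and 2.22 ± 0.14). Glutathione hydrolase 1 (TRINITY_DN729_c0_g2), which breaks glutathione down, rose by 3.33. Ascorbate oxidase (TRINITY_DN2352_c0_g1) was lower, at 410.0, 240.4 and 322 CPM against 29.1, 30.7 and 31.6 CPM (log2 fold change -3.41 ± 0.28, adjusted p = 1.3e-05), and 2-Cys peroxiredoxin (TRINITY_DN316_c0_g1) fell by 1.66. A superoxide dismutase (TRINITY_DN1132_c0_g1) and ascorbate peroxidase (TRINITY_DN247_c0_g1) were not called, with log2 fold changes of -0.25 and 0.07. The transcripts of glutathione reductase, the hydrolase and the ascorbate peroxidase hold frames of other proteins.

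Chaperone genes were called in both directions, with a balance that the scaling decided: of 109 genes 11 were higher and 16 lower, and 29 and 6 with library totals. A heat shock protein 90 gene (TRINITY_DN1083_c0_g1), whose frames match the endoplasmic reticulum form and a protein disulfide isomerase, was at 1351, 1029 and 1236 CPM against 499, 478 and 511 CPM (log2 fold change -1.28 ± 0.20, adjusted p = 0.00096). The folding aid luminal-binding protein 5 (TRINITY_DN2705_c0_g2) fell by 1.19, although its component sum (0.18) was not called. Mitochondrial heat shock protein 70 (TRINITY_DN276_c0_g1), on a transcript with frames of several other proteins, was at 329, 459 and 303 CPM and 448, 437 and 455 CPM and was not called (adjusted p = 0.25).

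For genes of protein synthesis and cell division the counts moved with the scaling and with single libraries. Of 130 cytosolic ribosomal protein genes 1 was higher and 14 lower, and the median log2 fold change of -0.29 turned to 0.20 with library totals, where 5 were higher and 1 lower; with the authors' scaling 40 were lower and with DESeq2 34. The count of lower genes was 4 to 7 without any 1 marine exponential library or freshwater stationary replicate 1 or 2, and 22 without marine stationary replicate 3. Ribosomal protein S16 (TRINITY_DN769_c1_g1) was at 480.3, 467 and 444 CPM against 296, 286 and 295 CPM (log2 fold change -0.67 ± 0.12, and -0.17 and not called with library totals). Of 109 DNA replication and cell cycle genes 10 were higher and 14 lower, 28 and 5 with library totals and 4 and 22 with the authors' scaling. The higher count was 5 to 6 without freshwater stationary replicate 3 or any 1 marine exponential library and 17 without marine stationary replicate 3, and the lower count was 8 to 9 without freshwater stationary replicate 1 or any 1 marine exponential library. Of 14 histone genes 4 were higher and 0 lower in edgeR, with 0 lower at an unadjusted p under 0.05 and with 6 and 0 in DESeq2. Histone H2A.1 (TRINITY_DN1587_c0_g1) and H3.2 (TRINITY_DN1789_c0_g1), which package DNA, rose by 1.89 (1.09 over its component) and 0.85. Thymidylate kinase (TRINITY_DN1033_c0_g1), which makes DNA precursors, was at 27.7, 24.1 and 29.0 CPM against 204, 182 and 177 CPM (log2 fold change 2.80 ± 0.16, adjusted p = 2.1e-06), and the replication helicase subunit MCM4 (TRINITY_DN1332_c0_g2) rose by 2.43 (0.42 and not called over its component). Proliferating cell nuclear antigen (TRINITY_DN4760_c0_g4), the sliding clamp of DNA polymerase, was at 53.7, 20.3 and 67.6 CPM against 11.1, 8.73 and 11.6 CPM; the groups did not overlap, but the adjusted p was 0.059, while its component sum was called as lower (-2.23). Ribonucleotide reductase (TRINITY_DN23_c2_g1) was at 203, 143 and 168 CPM and 188, 187 and 197 CPM and was not called.

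Of 112 cell wall and glycan genes 18 were higher and 34 lower in the marine exponential libraries. The balance depended on the scaling, with 11 higher and 44 lower with the authors' scaling and 32 and 18 with library totals. Prolyl 4-hydroxylase 5 (TRINITY_DN378_c0_g1), which prepares cell wall glycoproteins of algae and plants for sugar attachment, was at 5639, 3945 and 5995 CPM against 1049, 1026 and 1078 CPM (log2 fold change -2.30 ± 0.27, adjusted p = 0.00016), on a transcript that also holds a frame of a chloroplast import protein. Hydroxyproline arabinosyltransferase 3 (TRINITY_DN2219_c0_g1), which adds sugar to such proteins, fell by 2.22, and UDP-glucose 6-dehydrogenase 5 (TRINITY_DN27_c7_g2), which makes a wall sugar precursor, by 1.67. In the other direction, chitin synthase 2 (TRINITY_DN4857_c0_g1) was at 105, 97.9 and 82.4 CPM against 443, 478 and 461 CPM (log2 fold change 2.28 ± 0.17, adjusted p = 8.1e-06), and a glucan endo-1,3-beta-glucosidase with a bacterial best hit (TRINITY_DN70_c7_g1) rose by 3.03. Of 259 kinase and calcium signalling genes 36 were higher and 66 lower (73 and 31 with library totals). SAPK8 (TRINITY_DN886_c0_g1), a kinase of osmotic stress signalling in rice, was at 1251, 1386 and 1609.7 CPM against 73.0, 77.9 and 80.8 CPM (log2 fold change -4.20 ± 0.31, adjusted p = 7e-06; -2.16 over its component).

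**Figure D5:**
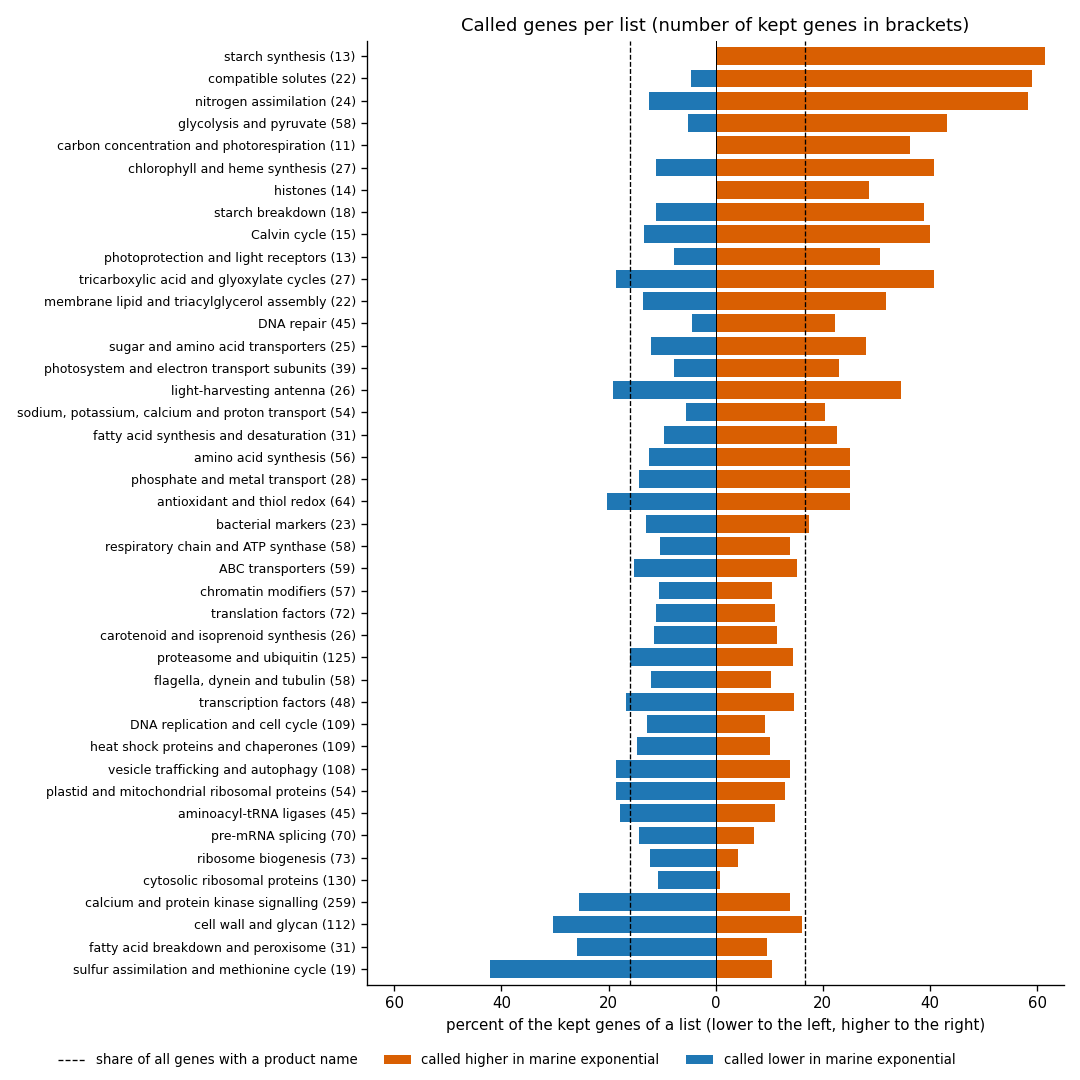
Percent of the kept genes of each list that were called higher (to the right) or lower (to the left) in the marine exponential libraries, for lists of at least 10 genes, with the number of kept genes in brackets. Dashed lines give the shares among all 4819 genes with a product name, 16.7% higher and 16.0% lower; starch synthesis, compatible solutes and nitrogen assimilation reach furthest to the right and sulfur assimilation furthest to the left.

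Some of the largest fold changes among abundant named genes came from genes nearly absent from 1 state. MICRORCHIDIA 2 (TRINITY_DN1371_c2_g1), a chromatin ATPase that silences transposons in plants, had 1 count in all freshwater stationary libraries and 3667 in the marine exponential ones, a ratio of 2538 with a 95% counting interval from 455 to 100259. That interval covers counting noise only and leaves out the spread between libraries. A leucine-rich repeat kinase (TRINITY_DN3976_c0_g1) was at 1.76, 1.31 and 0.716 CPM against 40.5, 44.1 and 40.6 CPM (log2 fold change 5.04 ± 0.40). At the other end, an assembled gene for ribosomal protein L37a (TRINITY_DN3805_c0_g1) was at 98.5, 54.3 and 32.0 CPM in the freshwater stationary libraries and had 0 counts in the marine exponential ones, at least 793-fold lower against a floor of 3 counts over the group. The other genes with the strongest falls, besides the LHCII type I genes TRINITY_DN2252_c0_g1 (-10.41) and TRINITY_DN546_c0_g9 (-7.83) given above, were the kinase Nek7 (TRINITY_DN89_c5_g1, -8.09), a 4-hydroxy-4-methyl-2-oxoglutarate aldolase (TRINITY_DN815_c0_g1, -6.58), glycosyltransferase BC10 (TRINITY_DN240_c0_g2, -6.50; -4.0 over its component), the kinase drkA (TRINITY_DN1130_c0_g1, -6.39; -2.27 over its component) and the protease FTSH (TRINITY_DN1636_c0_g1, -6.32; -2.11 over its component), each value a log2 fold change. FTSH, which removes damaged photosystem II subunits in chloroplasts, was at 679.7, 978 and 798 CPM against 11.8, 8.88 and 9.95 CPM. TURAN (TRINITY_DN1380_c0_g1), a glycosyltransferase, was at 558, 544 and 584 CPM against 22.7, 20.5 and 21.9 CPM, again with no overlap (log2 fold change -4.69 ± 0.28).

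Markers of other organisms were present at low levels and moved in part with the groups. Of 23 bacterial marker genes 4 were higher and 3 lower, 6 and 1 with library totals and 1 and 5 with the authors' scaling. The higher count was 2 without freshwater stationary replicate 1 or marine exponential replicate 1, and 1 without freshwater stationary replicate 2 or marine exponential replicate 3. Their sum was 1701 ± 148 CPM in the freshwater stationary and 763 ± 38.1 CPM in the marine exponential libraries. One gene, TRINITY_DN966_c0_g1, named bacterial ribosomal protein L27 but with frames of other proteins on its transcript, was at 1100.4, 905 and 1088 CPM against 87.4, 89.8 and 99.1 CPM, which is 60.6% of the freshwater stationary sum. The 9 animal markers summed to 188 ± 10.4 and 188 ± 24.4 CPM, with 1 gene higher and 1 lower; the higher call was lost without any 1 freshwater stationary or marine exponential library or marine stationary replicate 1 or 2. The fungal list had 2 genes, of which chitin synthase 2 above was higher (both were with library totals or without freshwater stationary replicate 2) and made up 93.1% of the marine exponential sum. What part such organisms have in the results was not tested.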

How the data were processed

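RNA was measured by poly(A)-selected sequencing without strand information, and per the labels and the series' design text the authors assembled the transcripts with Trinity and annotated them with Trinotate. The deposited table holds expected counts per assembled gene, estimated by the authors with RSEM 1.3.2 over Bowtie alignments, per the submitters' processing notes, which also name DESeq2 1.20.0. The authors' group means are a deposited signal, normalised by SVCD per the series' design text, and were used only as an alternative scaling. Each count column was tied to its sample by the code in that sample's description.

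Counts were rounded. Genes with at least 15 counts summed over the freshwater and over the marine libraries were kept, product names came from the best Swiss-Prot hit in the deposited annotation (E-value of at most 1e-10), and reading frames from the Trinotate report. edgeR 4.0.16 (R 4.3.3, limma 3.58.1) fitted 1 quasi-likelihood model to all 12 libraries with TMM factors, and adjusted p-values are Benjamini-Hochberg values over the 23351 kept genes, called under 0.05. Sums were compared with an exact permutation test over libraries. Alternatives included DESeq2 1.42.0, other scalings and filters, summed components and left-out libraries. On data simulated for this comparison over 23351 genes, 41 of 50 genes with a log2 fold of 2, 17 of 50 with 1, 11 of 50 with -1 and 33 of 50 with -2 were called. The changed genes were drawn only from those whose mean CPM had a log2 of at least 4, so these rates do not cover genes of lower level. No other gene was changed in the simulation, while 3389 genes were called in the data. The adjusted p depends on how many genes change, so the rates may not carry over to the real comparison. Tables and plots were made with Python 3.11.15, pandas 2.3.3, NumPy 2.4.6, SciPy 1.17.1 and matplotlib 3.10.9.

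Members and gene lists were chosen with earlier results of these data known. Named genes are up to 2 called genes per list in its main direction and up to 1 in the other, in order of p and given in part, the 8 strongest fold changes in each direction among abundant genes whose groups do not overlap, a panel of pathway genes, and the antenna genes; 38 of the 140 genes named were chosen outside that rule after their values were seen. Nitrite reductase, a panel gene, had no gene named after it.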

Additional observations from a re-analysis of the deposited data

How the results depend on the processing

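Against 1553 genes higher and 1836 lower, other settings gave 2881 and 1101 with library totals and no TMM factor, 450 and 704 against a tested fold of 2 (glmTreat), 647 and 462 with libraries of a shared code stem summed (which leaves marine exponential as 1 sample, assumed to vary like the other groups), 2458 and 2827 with DESeq2, and 2076 and 3849 with edgeR's own filter, which tested 31491 genes. Leaving out 1 library gave 1193 to 1871 higher and 1394 to 2104 lower. Same-numbered libraries of the 2 groups did not deviate together (correlations of -0.021, 0.0037 and -0.0021), so the numbers do not pair them; with a replicate block 1407 were higher and 1674 lower. Of 92 list counts, 32 moved by over 1.5 times without at least 1 library.

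Among the 140 named genes, 26 lost their call against a fold of 2, 25 with shared stems summed, 12 with components summed and 4 with library totals. Signs turned with library totals for TRINITY_DN1132_c0_g1 (0.25), TRINITY_DN1599_c0_g1 (0.45), TRINITY_DN1738_c0_g2 (0.33), TRINITY_DN1819_c0_g1 (0.018), TRINITY_DN1819_c1_g3 (0.33) and TRINITY_DN2947_c0_g1 (0.013). They turned with components summed for TRINITY_DN1132_c0_g1 (0.14), TRINITY_DN1599_c0_g1 (0.0033), TRINITY_DN1819_c0_g2, TRINITY_DN1819_c0_g4 and TRINITY_DN1819_c0_g7 (-0.086 each), TRINITY_DN1819_c1_g3 (0.58), TRINITY_DN2252_c0_g2 and TRINITY_DN2252_c0_g4 (-1.35 each), TRINITY_DN2705_c0_g2 (0.18), TRINITY_DN290_c3_g2 (-1.13), and TRINITY_DN546_c0_g10, TRINITY_DN546_c0_g2 and TRINITY_DN546_c0_g6 (-0.48 each). With shared stems summed they turned for TRINITY_DN1599_c0_g1 (0.20), TRINITY_DN1738_c0_g2 (0.080) and TRINITY_DN1819_c1_g3 (0.084), and with the authors' scaling for TRINITY_DN1819_c1_g2 (-0.10), TRINITY_DN23_c2_g1 (-0.067), TRINITY_DN247_c0_g1 (-0.15), TRINITY_DN290_c3_g2 (-0.091) and TRINITY_DN86_c0_g1 (-0.18). With 1 library left out, ranges crossed 0 for TRINITY_DN1599_c0_g1 (-0.13 to 0.040), TRINITY_DN1738_c0_g2 (-0.30 to 0.032), TRINITY_DN1819_c1_g2 (-0.00034 to 0.31), TRINITY_DN1819_c1_g3 (-0.31 to 0.015) and TRINITY_DN546_c0_g6 (-10.93 to 12.29). The causes were not tested.

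Medium, phase and day differ together, libraries with a shared code stem limit what the p-values cover, and counts per assembled gene without strand do not separate neighbouring or similar genes.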
